A study of Mus musculus with 9 samples.

Results

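The genes described here encode semaphorins, plexins, Eph receptors and ephrins, signalling proteins first studied as guidance cues for growing axons. They were found by symbol in the platform's probe annotation, among probe sets annotated to a single gene, as every symbol beginning Sema3 to Sema7, Plxna to Plxnd, Epha or Ephb with a digit, or Efna or Efnb with a digit. This gave 51 of the 18194 genes tested, read by 116 probe sets, and each gene was represented by its brightest probe set on average. The 51 comprise 20 semaphorins, 9 plexins, 13 Eph receptors, 8 ephrins and 1 antisense RNA, Plxna4os1, whose symbol fits the pattern without encoding a plexin.

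Semaphorins are secreted or membrane-bound ligands, and plexins are their receptors, which act on small GTPases and so on the cytoskeleton and on adhesion. Class 3 semaphorins mostly bind through a co-receptor, a neuropilin. Ephrins are ligands anchored in the cell membrane, the A class by a lipid anchor and the B class by a transmembrane segment, and Eph receptors are the tyrosine kinases that bind them on a neighbouring cell. An ephrin on a cell that touches an Eph receptor can also signal back into its own cell. In epithelia and carcinomas these proteins are known for roles in cell sorting, repulsion, migration and vessel growth.

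RNA came from 9 samples of SCCVII, a mouse cell line from an oral squamous cell carcinoma that arose spontaneously in mice the labels call CH3, in 3 groups of 3 arrays. IR is SCCVII recovered from tumours that PA cells formed after injection into stroma irradiated beforehand. The labels give those tumours as strongly hypoxic, with invasion and metastasis, and the IR lines as keeping both capacities in normoxic culture. NIR is SCCVII recovered from tumours that PA cells formed in stroma without irradiation, with tumours and lines both called poorly invasive and metastatic. PA is the parental SCCVII in standard culture, from which both derived groups came. The design text calls the 9 samples independent, but no label ties an array to its own tumour, line or dish, so p-values measure the spread between these samples, which may be technical.

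The medians of the arrays lay between 4.44 and 4.52 (log2), and the SD of the log2 differences between 2 arrays was 0.137 to 0.217 within groups and 0.174 to 0.279 between groups. Of 12 squamous and epithelial markers, 5 (Krt14, Trp63, Krt7, Cdh1 and Dsp) lay below the median probe set (4.49) as a mean in every group, whereas the simple-epithelium keratin Krt8 read 12.65 to 12.84 in IR, 12.61 to 12.85 in NIR and 12.64 to 12.73 in PA. Its partner Krt18 was the marker of that list that was called, with 11.96 ± 0.033 in IR, 11.39 ± 0.21 in NIR and 11.41 ± 0.030 in PA (mean ± SD of 3 arrays, IR minus NIR 0.57 and IR minus PA 0.55, limma adjusted p = 0.018 and 0.0146). Col1a2, a collagen gene typical of fibroblasts, was bright in all groups, parental culture included, at 11.49 to 11.59 in IR, 11.10 to 11.72 in NIR and 11.09 to 11.50 in PA.

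Within the guidance genes, only ephrin-B ligands passed the test in any comparison. Efnb2, which encodes ephrin-B2, was 1.81-fold higher in IR than in PA and 1.72-fold higher in NIR than in PA, and IR and NIR did not separate. Efnb1, which encodes ephrin-B1, was 1.38-fold higher in NIR than in PA. No semaphorin, plexin or Eph receptor passed in any comparison. The following sequences are the 250 bases before the gene starts of the 2 genes that passed, shown because both ligands read higher in a line recovered from a tumour. They are from RefSeq, build GRCm38.p6, in the direction of transcription, with capitals for the CCAAT box (CCAAT or its reverse complement ATTGG) and the GC box (GGGCGG or its reverse complement CCGCCC).
Efnb2, chr8:8661243-8661492, minus strand: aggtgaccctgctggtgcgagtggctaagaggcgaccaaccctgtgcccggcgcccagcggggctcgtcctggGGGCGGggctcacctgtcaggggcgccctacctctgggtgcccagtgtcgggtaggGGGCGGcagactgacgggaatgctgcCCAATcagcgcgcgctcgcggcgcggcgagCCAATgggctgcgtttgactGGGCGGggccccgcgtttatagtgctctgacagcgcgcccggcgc
Efnb1, chrX:99135811-99136060, plus strand: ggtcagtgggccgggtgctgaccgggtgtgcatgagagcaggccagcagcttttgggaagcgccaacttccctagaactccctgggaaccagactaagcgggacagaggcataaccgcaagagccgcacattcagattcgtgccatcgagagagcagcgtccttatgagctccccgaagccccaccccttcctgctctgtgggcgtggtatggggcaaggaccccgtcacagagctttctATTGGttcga

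The Efnb2 window held 2 CCAAT boxes, at 95 to 91 and 65 to 61 bases before the start, and 3 GC boxes, and its G and C content was 72%. A match to TATAAA on the opposite strand lay 30 to 25 bases before the start. The Efnb1 window held 1 CCAAT box, on the opposite strand 10 to 6 bases before the start, no GC box and no TATAAA match, and its G and C content was 60%. Neither window held ACGTG or its reverse complement CACGT, letters of 1 form of the element that hypoxia-inducible factors bind. Other forms of that element were not searched. Searched on both strands, with no overlap between matches of different motifs in these windows, CCAAT occurred in 33.8% of the 32851 RefSeq windows of this length, GGGCGG in 32.7%, ACGTG in 16.6% and TATAAA in 12.4%. Of the 51 guidance genes 44 matched a promoter entry, and among their 58 windows the shares were 31%, 75.9%, 19% and 1.72% in the same order of motifs. A match is only a run of letters, and its absence says nothing of a factor.

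Counted over all 51 genes, limma called 0 between IR and NIR at a Benjamini-Hochberg adjusted p below 0.05, against 1.65% of all 18194 genes (0.786% higher and 0.863% lower in IR), and 4 had an unadjusted p below 0.05, against 15.9%. In IR against PA it called 1, Efnb2, which was higher, against 1.06% of all genes in both directions and, by direction, 0.297% higher and 0.758% lower in IR. For NIR against PA it called 2, Efnb2 and Efnb1, both higher, against 1.3% of all genes and, by direction, 0.379% higher and 0.918% lower in NIR. The F test over the groups called the same 2 genes, against 2.34% of all genes. Counts of 0 to 2 are too small to be compared with these shares, and the results concern those 2 genes rather than the families. Arrays of the compared groups did not overlap for 5 genes in IR against NIR, 7 in IR against PA and 7 in NIR against PA, against 18.1%, 14.7% and 15.5% of all genes.

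Efnb2, the ligand of EphB receptors and EphA4 and a marker of arterial endothelium, read 9.24, 9.24 and 9.15 on the IR arrays, 9.18, 9.13 and 9.11 on the NIR arrays, and 8.47, 8.36 and 8.24 on the PA arrays (log2 signal). All 6 arrays of the derived lines lay above all 3 of the parental line, with a gap wider than the range within any group. Its level averaged 9.21 ± 0.055 in IR, 9.14 ± 0.035 in NIR and 8.36 ± 0.11 in PA (mean ± SD of 3 arrays, as in all such values here). The log2 difference was 0.85 for IR against PA (SE 0.075, 95% interval 0.69 to 1.02, limma adjusted p = 0.000164) and 0.78 for NIR against PA (interval 0.62 to 0.95, limma adjusted p = 0.000201). These comparisons share the PA arrays. Between IR and NIR the difference was 0.069 (interval -0.094 to 0.23, limma adjusted p = 0.723). Among all genes the Efnb2 rise ranked 24 in IR against PA and 18 in NIR against PA by size.

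The gene has 4 probe sets, and 3 of them passed against PA in both derived lines when every probe set was tested. The second brightest gave 0.73 for IR against PA and 0.82 for NIR against PA (limma adjusted p = 0.000554 and 0.000206). The third gave 0.61 and 0.58 (limma adjusted p = 0.025 and 0.0307). The dimmest, with values between 5.12 and 5.66, gave 0.09 and 0.22 and passed in neither (limma adjusted p = 0.907 and 0.469). Leaving out each array in turn kept Efnb2 past the threshold in both comparisons, with log2 differences of 0.80 to 0.91 against PA in IR and 0.73 to 0.84 in NIR and limma adjusted p up to 0.00215.

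Markers of other cell types moved with Efnb2 in part. The mean of 8 fibroblast markers was 7.73 to 7.90 in IR, 7.54 to 7.996 in NIR and 7.33 to 7.46 in PA. It too separated both derived lines from PA, with Dcn called in both comparisons and Lum in NIR against PA, while Thy1 and Postn were below the median probe set in every group. Of the 8 markers, 7 had a positive difference in IR against PA and 8 in NIR against PA, most without a call. Pdgfra, with a mean of 9.21, differed by only 0.021 in IR against PA and 0.17 in NIR against PA (limma adjusted p = 0.982 and 0.561). The mean of 10 macrophage markers was 4.82 to 5.33 in IR, 4.83 to 4.96 in NIR and 4.58 to 4.77 in PA, with Adgre1, Ptprc and C1qb below the median probe set in every group. Mrc1 was called in NIR against PA (0.75, limma adjusted p = 0.0156), and its IR arrays also lay above its PA arrays (0.47, limma adjusted p = 0.184). Lyz2 did not pass, but its arrays lay above all PA arrays in IR (1.72, limma adjusted p = 0.251) and in NIR (0.94, limma adjusted p = 0.52). Of the 10 macrophage markers, 9 had a positive difference in IR against PA (median 0.23) and 7 in NIR against PA (median 0.16). The highest mean of macrophage markers was that of IR3, at 5.33. Efnb2 read 9.24, 9.24 and 9.15 on IR1, IR2 and IR3. The mean of 7 endothelial markers was 4.22 to 4.25 in IR, 4.34 to 4.46 in NIR and 4.24 to 4.35 in PA, and Pecam1, Tek, Emcn and Vwf were below the median probe set in every group. Cdh5, which was not dim, read 5.74 to 6.32 in IR, 6.31 to 6.67 in NIR and 5.81 to 5.96 in PA, with NIR minus PA of 0.64, IR minus NIR of -0.60 and IR minus PA of 0.040 (limma adjusted p = 0.063, 0.0682 and 0.979). Of the 7 endothelial markers, 4 had a positive difference in NIR against PA (median 0.011). In IR against NIR 1 of 7 was positive (median -0.11), and in IR against PA also 1 of 7 (median -0.042). The part of fibroblast, macrophage and endothelial markers in the results for Efnb2 and Efnb1 was not tested. In such bulk samples a change in the number of cells of a type and a change in RNA per cell cannot be told apart. For the other lists, the means in IR, NIR and PA were 5.86 to 5.91, 5.85 to 5.90 and 5.82 to 5.89 for squamous and epithelial markers, 5.16 to 5.34, 5.30 to 5.43 and 5.24 to 5.34 for Schwann and neural markers, and 5.10 to 5.24, 5.18 to 5.22 and 4.92 to 5.18 for lymphocyte markers.

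Efnb1, an X-linked gene whose ligand acts through EphB receptors, read 6.26, 6.41 and 6.40 in IR, 6.26, 6.62 and 6.41 in NIR, and 6.06, 5.95 and 5.88 in PA. Every derived array was again above every parental one, by a smaller gap than for Efnb2. The log2 difference passed for NIR against PA (0.47, SE 0.095, 95% interval 0.26 to 0.67, limma adjusted p = 0.0391) and missed for IR against PA (0.40, interval 0.19 to 0.60, limma adjusted p = 0.0997). IR minus NIR was -0.07 (interval -0.28 to 0.14, limma adjusted p = 0.793), so the derived lines were not shown to differ. The call in NIR against PA was lost without any array but IR3 and NIR1 (limma adjusted p up to 0.162, without PA3). It was also lost with the mean of the gene's probe sets (0.21, limma adjusted p = 0.181) and under median centring (0.46, limma adjusted p = 0.0513). Of the other probe sets of Efnb1, the brighter gave 0.22 and the dimmer -0.055 for NIR against PA, and neither passed (limma adjusted p = 0.428 and 0.867).

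**Figure D1:**
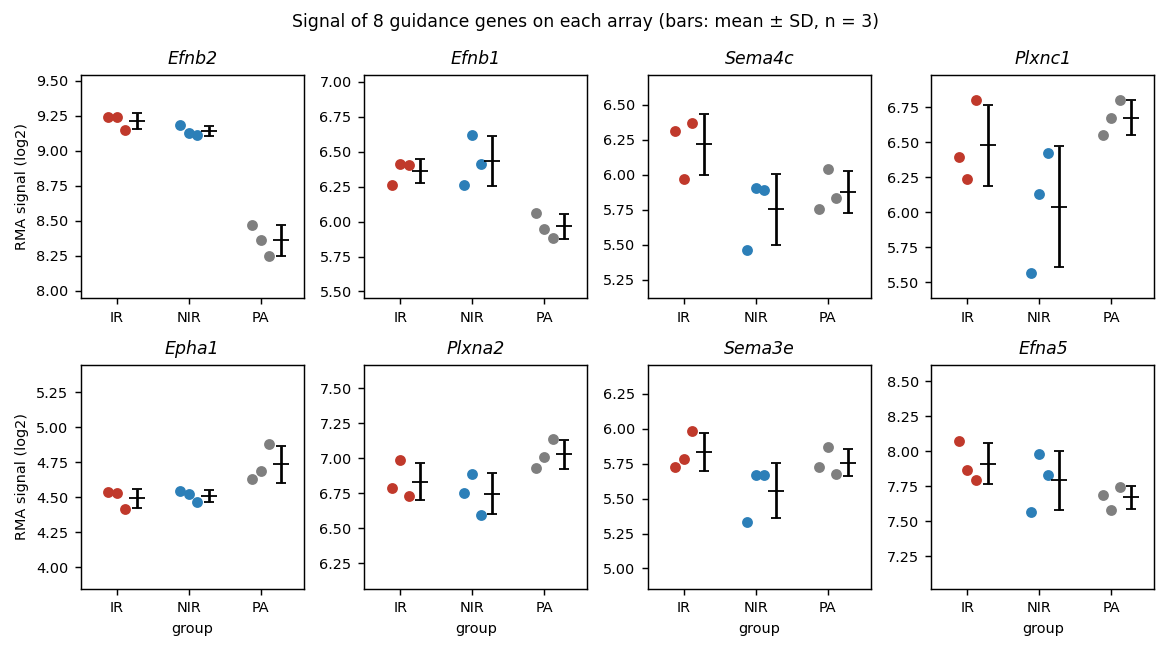
RMA signal (log2, vertical axis, each panel spanning the same range) of the 8 guidance genes given by array, for IR, NIR and PA; points are arrays and bars the mean ± SD (n = 3). Efnb2 sits at 9.11 to 9.24 on the derived arrays and at 8.24 to 8.47 on the PA arrays, whereas the other panels show smaller gaps or overlapping groups.

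**Figure D2:**
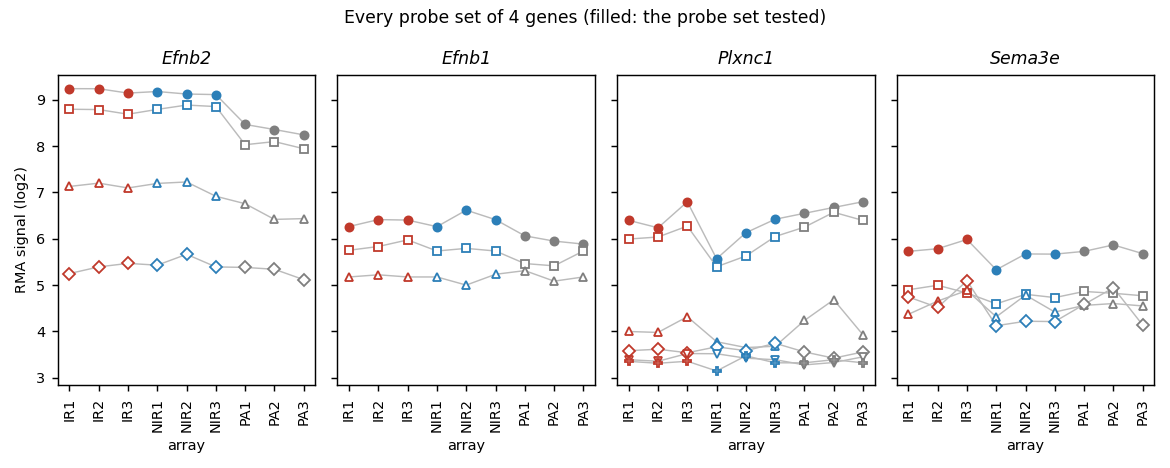
RMA signal (log2) of every probe set of Efnb2, Efnb1, Plxnc1 and Sema3e on each of the 9 arrays, coloured by group; filled symbols mark the probe set tested and grey lines join a probe set's arrays. The 3 brightest Efnb2 probe sets drop together on the PA arrays, and the 3 brightest Plxnc1 probe sets are lower on every NIR array than on any PA array.

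The third B-class ligand did not pass. Efnb3 averaged 4.95 ± 0.062 in IR, 5.01 ± 0.0083 in NIR and 4.89 ± 0.071 in PA, near the median probe set, with NIR minus PA of 0.13 (limma adjusted p = 0.499). Of the A-class ligands, Efna5, known from the retinotectal map, read 8.07, 7.87 and 7.80 in IR, 7.57, 7.98 and 7.83 in NIR, and 7.69, 7.58 and 7.74 in PA. Its IR arrays all lay above its PA arrays, and IR minus PA was 0.24 (unadjusted p = 0.0497, limma adjusted p = 0.58). Its only other probe set was dim and gave -0.083. Efna2 averaged 6.76 ± 0.24 in IR, 6.61 ± 0.079 in NIR and 6.65 ± 0.13 in PA, and Efna1, an EphA2 ligand, averaged 6.08 ± 0.15, 5.99 ± 0.20 and 6.03 ± 0.18 in the same order. For Efna2, IR minus NIR was 0.15 and NIR minus PA -0.042. Its other probe set went the other way, with -0.21 and 0.27 (limma adjusted p = 0.229 and 0.178 when every probe set was tested). The other Efna1 probe set gave 0.33 for IR against PA (limma adjusted p = 0.586), against 0.047 on the brighter one. Efna3 and Efna4 were dim, that is, below the median probe set of 4.49 as a mean in every group. All 8 ephrins had a positive log2 difference in IR against PA (0.047 to 0.85), 6 of 8 in NIR against PA (-0.044 to 0.78) and 5 of 8 in IR against NIR (-0.076 to 0.15), against 51.9%, 51.6% and 50.5% of all genes.

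None of the 13 Eph receptor genes passed. Epha2, the Eph receptor best known from epithelial tumours, averaged 7.98 ± 0.025 in IR, 8.01 ± 0.10 in NIR and 8.02 ± 0.042 in PA. Its differences were -0.025 for IR against NIR, -0.037 for IR against PA and -0.012 for NIR against PA, and none of the 3 intervals reached 0.2 in size. Ephb4, the main receptor of ephrin-B2 in vessels, averaged 6.06 ± 0.075 in IR, 6.07 ± 0.093 in NIR and 5.98 ± 0.077 in PA, with IR minus PA of 0.085 (interval -0.083 to 0.25). Ephb3 and Epha4, which also bind ephrin-B2, averaged 5.00 ± 0.13 and 4.56 ± 0.12 in IR, 4.93 ± 0.19 and 4.73 ± 0.095 in NIR, and 4.94 ± 0.16 and 4.64 ± 0.14 in PA. No rise of Ephb4, Ephb3 or Epha4 was detected beside the rise of the ligand. Ephb2 was not among the 13 receptor genes found, so it was not read here.

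Epha1 had the smallest p among the receptors. It read 4.54, 4.53 and 4.41 in IR, 4.55, 4.53 and 4.46 in NIR, and 4.63, 4.69 and 4.88 in PA, all near the median probe set. Every PA array was higher than every derived one, but the differences were small, -0.24 for IR against PA (unadjusted p = 0.0109, limma adjusted p = 0.32) and -0.22 for NIR against PA (unadjusted p = 0.0165, limma adjusted p = 0.273). Both other Epha1 probe sets were dim and gave 0.069 and -0.068 for IR against PA. Epha10, a receptor without kinase activity, averaged 6.16 ± 0.24 in IR, 6.28 ± 0.095 in NIR and 6.29 ± 0.15 in PA. Epha3, Epha5, Epha6, Ephb1 and Ephb6 were dim. Over the 13 receptors, log2 differences ran from -0.17 to 0.13 in IR against NIR, from -0.24 to 0.19 in IR against PA and from -0.22 to 0.097 in NIR against PA.

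**Figure D3:**
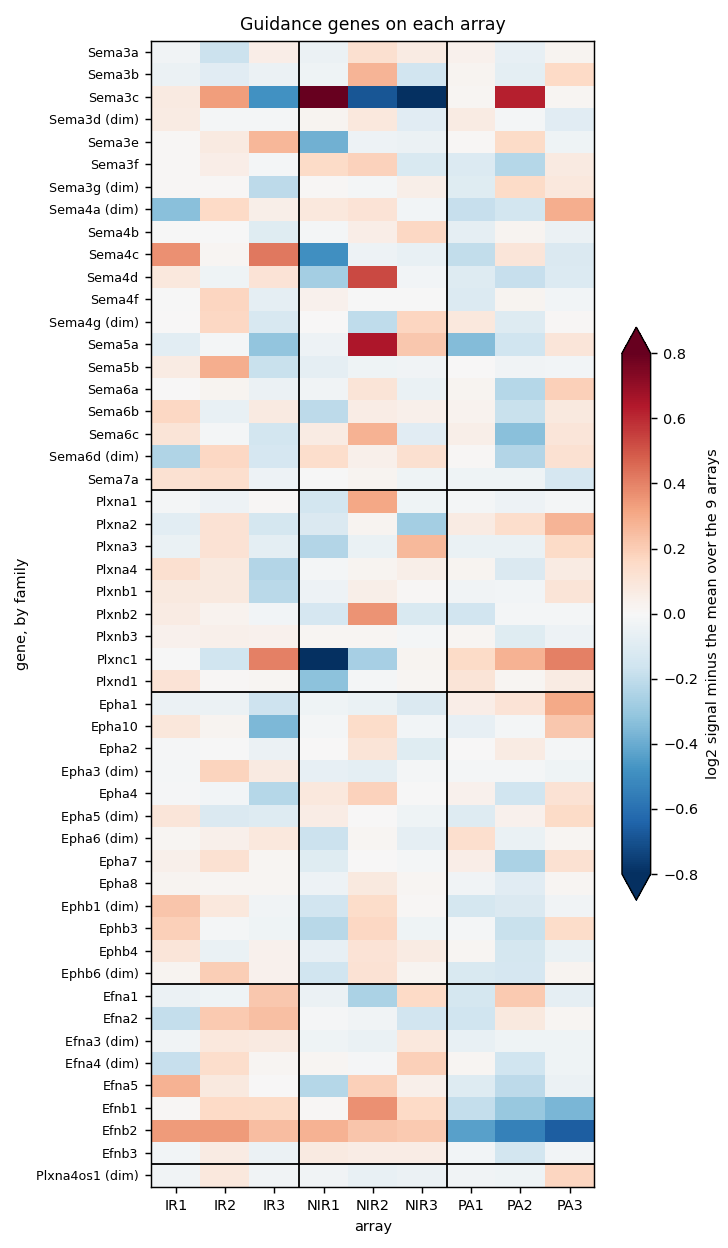
Log2 signal of the 51 genes (rows, by family) on each array (columns), as the difference from the gene's mean over the 9 arrays; the colour scale is cut at 0.8 in both directions, and dim marks genes below the median probe set of 4.49 in every group. Efnb2 and Efnb1 show the same split of derived from parental arrays, whereas Sema3c, Plxnc1, Sema5a and Sema4d vary mostly within NIR.

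The smallest unadjusted p-values between IR and NIR were those of semaphorins, and none of the 20 semaphorin genes passed in any comparison. Sema4c, a membrane-bound semaphorin that binds plexin-B2, read 6.32, 5.97 and 6.37 in IR, 5.46, 5.91 and 5.89 in NIR, and 5.76, 6.05 and 5.84 in PA. Its lowest IR array was above its highest NIR array by a small margin, and below the highest PA array. IR minus NIR was 0.47 (SE 0.14, 95% interval 0.16 to 0.77, unadjusted p = 0.00597, limma adjusted p = 0.117), and leaving out single arrays moved it between 0.32 and 0.59 without a call (limma adjusted p from 0.0905 to 0.32). IR minus PA was 0.34 (unadjusted p = 0.0309, limma adjusted p = 0.502). Sema3e, the secreted ligand of plexin-D1, read 5.73, 5.78 and 5.98 in IR, 5.33, 5.67 and 5.67 in NIR, and 5.73, 5.87 and 5.68 in PA. IR and NIR arrays did not overlap, with a difference of 0.28 (unadjusted p = 0.0242, limma adjusted p = 0.225). All 4 of its probe sets were higher in IR than in NIR, by 0.13 to 0.60, the last of these from one with an adjusted p of 0.147 by limma.

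None of the semaphorins with the highest mean signals passed. Signals of different probe sets are not on a common scale, so these means do not rank transcripts. Sema5a, a membrane protein with thrombospondin repeats, averaged 9.71 ± 0.16 in IR, 10.13 ± 0.35 in NIR and 9.72 ± 0.22 in PA. Its NIR arrays spread from 9.82 to 10.50 and overlapped both other groups (IR minus NIR -0.41, unadjusted p = 0.0259, limma adjusted p = 0.233; NIR minus PA 0.41, unadjusted p = 0.0265, limma adjusted p = 0.329). The other Sema5a probe sets that were not dim, with means of 8.13 and 6.03, disagreed. They gave 0.024 and -0.45 for IR against NIR (limma adjusted p = 0.952 and 0.326) and 0.13 and 0.25 for NIR against PA (limma adjusted p = 0.683 and 0.708). Sema3a, the prototype collapse factor for growth cones, averaged 8.82 ± 0.11 in IR, 8.91 ± 0.089 in NIR and 8.86 ± 0.055 in PA. Its second brightest probe set, with a mean of 8.23, had all IR arrays below all PA arrays. There IR minus PA was -0.31 (limma adjusted p = 0.394 when every probe set was tested), against -0.044 on the brightest and -0.096 on the dimmest. Sema3f, a neuropilin-2 ligand that restrains tumour vessels in several models, averaged 8.75 ± 0.034 in IR, 8.81 ± 0.17 in NIR and 8.65 ± 0.15 in PA. These values come from a probe set of the _x_at type, whose probes may also read other sequences. It gave 0.16 for NIR against PA. The other Sema3f probe sets were dimmer, with means of 5.80 and 5.40, and gave -0.14 and -0.20 (limma adjusted p = 0.534 and 0.44). Sema4d, the ligand of plexin-B1, averaged 8.27 ± 0.075 in IR, 8.29 ± 0.41 in NIR and 8.08 ± 0.046 in PA. Dim genes were Sema3d, Sema3g, Sema4a, Sema4g and Sema6d. Over the 20 semaphorins the log2 differences ran from -0.41 to 0.47 in IR against NIR, from -0.24 to 0.34 in IR against PA and from -0.41 to 0.41 in NIR against PA.

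None of the 9 plexin genes passed, and none was dim. Plxnc1, the receptor of Sema7a, read 6.40, 6.24 and 6.80 in IR, 5.57, 6.13 and 6.42 in NIR, and 6.55, 6.68 and 6.80 in PA. NIR arrays lay below PA arrays without overlap, but spread more widely than the gap between the groups. NIR minus PA was -0.64 (SE 0.19, 95% interval -1.06 to -0.21, unadjusted p = 0.00665, limma adjusted p = 0.181), and IR minus NIR was 0.44 (unadjusted p = 0.0429, limma adjusted p = 0.291). Without NIR1 the first difference shrank to -0.40 (limma adjusted p = 0.332). Of 6 Plxnc1 probe sets the 3 brightest gave -0.64, -0.72 and -0.58 for NIR against PA (limma adjusted p = 0.216, 0.0542 and 0.159 when every probe set was tested). The third of these was itself dim, with a mean of 4.02. The remaining 3, also dim, gave -0.031 to 0.15.

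Plxna2, a receptor for class 3 and class 6 semaphorins, read 6.79, 6.99 and 6.73 in IR, 6.75, 6.89 and 6.60 in NIR, and 6.93, 7.01 and 7.14 in PA. On this probe set NIR and PA arrays did not overlap (-0.28, unadjusted p = 0.014, limma adjusted p = 0.254), and IR and PA arrays did. On the gene's other probe sets that were not dim, IR arrays lay below PA arrays without overlap. These gave -0.36 and -0.22 for IR against PA (limma adjusted p = 0.231 and 0.343 when every probe set was tested). For NIR against PA they gave -0.054 and -0.16 (limma adjusted p = 0.896 and 0.45). The dim probe set gave 0.040 and 0.16. Plxnb2, a receptor of class 4 semaphorins, averaged 9.68 ± 0.046 in IR, 9.69 ± 0.28 in NIR and 9.59 ± 0.081 in PA. Plxna1 averaged 7.75 ± 0.027 in IR, 7.80 ± 0.24 in NIR and 7.74 ± 0.016 in PA. Plxna4 averaged 7.88 ± 0.20 in IR, 7.90 ± 0.034 in NIR and 7.88 ± 0.096 in PA. The antisense RNA Plxna4os1 was dim, at 3.26 to 3.49 over the 9 arrays, and passed in no comparison.

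The guidance genes had a median size of log2 difference of 0.077 in IR against NIR, 0.078 in IR against PA and 0.07 in NIR against PA, beside 0.085, 0.07 and 0.079 over all genes. For 46 of 51 the 95% interval of IR minus NIR lay within 0.5 in both directions, and for 50 within 1, the exception being Sema3c. For IR against PA these counts were 45 and 49, and for NIR against PA 45 and 49. Signal limits the reading of 13 dim genes, 11 of which were below 4.49 on every array.

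**Figure D4:**
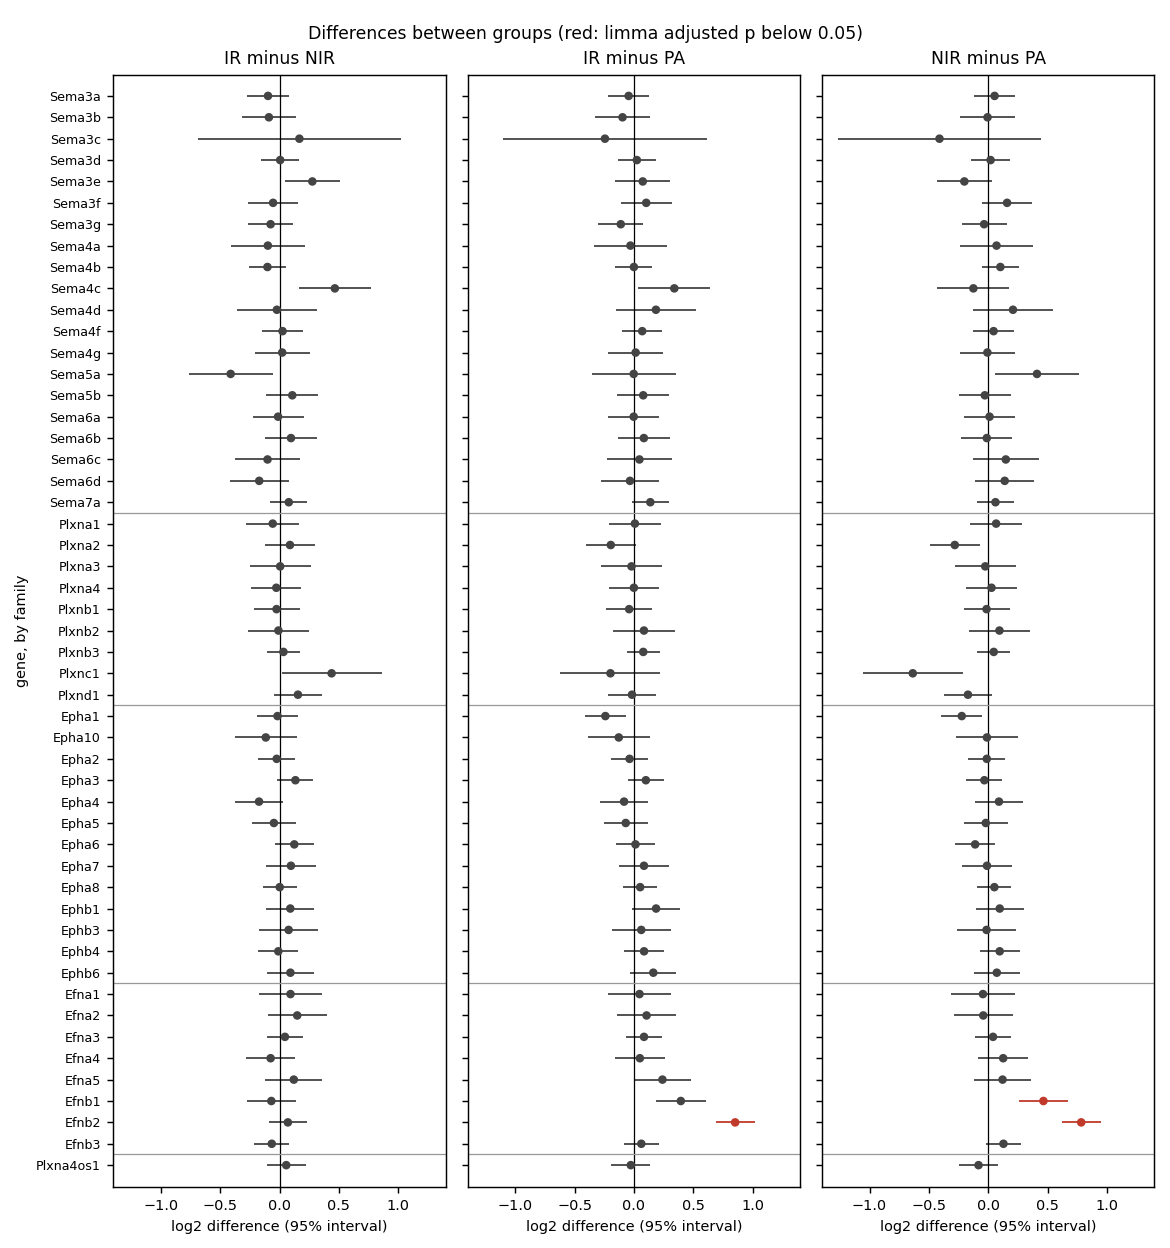
Log2 differences IR minus NIR, IR minus PA and NIR minus PA (panels) for the 51 genes (rows, by family), with 95% intervals from limma; red marks an adjusted p below 0.05. The red points are Efnb2 in both panels against PA (0.85 and 0.78) and Efnb1 in NIR minus PA (0.47), and the wide intervals belong to Sema3c and Plxnc1.

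Partners of these families were taken from 3 lists of co-receptors, transducers and other guidance cues. Of 30 measured semaphorin co-receptors and transducers, 1 rose and 0 fell in IR against NIR, and 0 passed in either comparison with PA. The list medians were -0.0014, 0.032 and 0.048 in IR against NIR, IR against PA and NIR against PA, beside 0.0014, 0.0043 and 0.0046 over all genes. The gene that rose was Rras, a small GTPase that plexins switch off and that promotes integrin activity. Rras read 8.77, 8.80 and 9.09 in IR, 8.44, 8.24 and 8.08 in NIR, and 8.67, 8.58 and 8.77 in PA. Its IR arrays were all above its NIR arrays, and IR minus NIR was 0.63 (SE 0.11, 1.55-fold, limma adjusted p = 0.0203). The call was lost when IR2, IR3 or NIR2 was left out (highest limma adjusted p 0.0576) and in a fit of IR and NIR alone (limma adjusted p = 0.109). Against PA, Rras differed by 0.21 in IR and by -0.42 in NIR (limma adjusted p = 0.656 and 0.105).

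The neuropilins did not pass. Nrp1, a co-receptor for class 3 semaphorins and VEGF, averaged 7.69 ± 0.041 in IR, 7.82 ± 0.25 in NIR and 7.61 ± 0.038 in PA. Nrp2, its relative with a preference for Sema3f, averaged 8.61 ± 0.07 in IR, 8.89 ± 0.10 in NIR and 8.78 ± 0.021 in PA. IR minus NIR was -0.28 for Nrp2 (SE 0.074, limma adjusted p = 0.0815), which passed when genes with low signal were left out. For Nrp1 it was -0.12 (limma adjusted p = 0.644). With every probe set tested, the other Nrp1 probe sets gave -0.42, -0.28 and 0.14 (limma adjusted p = 0.0796, 0.358 and 0.467). Those of Nrp2 gave -0.51, -0.48 and 0.057 (limma adjusted p = 0.0923, 0.192 and 0.892).

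Of 27 Eph and ephrin transducers (among them adaptors, Src kinases and a sheddase), 0 passed in any of the 3 comparisons, with medians of -0.022, 0.007 and 0.028 in the same order of comparisons. Of 20 genes of the netrin, Slit and Rgm families, 1 fell and 0 rose in IR against NIR, 1 fell and 0 rose in IR against PA, and 0 passed in NIR against PA. The medians were 0.016, 0.10 and 0.026. Slit2, a secreted ligand of Robo receptors, was the gene that fell in both. Slit2 read 7.08, 7.11 and 7.25 in IR, 7.76, 7.55 and 7.83 in NIR, and 7.61, 7.65 and 7.70 in PA. The IR arrays, which both comparisons share, were below all 6 others. IR minus NIR was -0.56 (SE 0.085, limma adjusted p = 0.0119) and IR minus PA was -0.51 (SE 0.085, limma adjusted p = 0.0134), while NIR minus PA was 0.058 (limma adjusted p = 0.845). The first call was lost without IR1 (limma adjusted p = 0.0561) and in a fit of IR and NIR alone (limma adjusted p = 0.0863). With the mean of the gene's probe sets the first difference shrank to -0.26 (limma adjusted p = 0.0415). The second call was lost without any of IR1, IR2, PA1, PA2 or PA3 (up to 0.0805, without IR1) and with that mean (-0.15, limma adjusted p = 0.359). Both other Slit2 probe sets were dim, at means of 3.75 and 3.44, and differed by -0.11 each in IR against NIR.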

How the data were processed

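Total RNA was purified with a Qiagen RNeasy kit, labelled with biotin and hybridized to single-channel Affymetrix mouse arrays, per the labels' protocols. The authors deposited 1 log2 value per probe set and array. Per the submitters' processing notes these come from RMA, a method that normally corrects background, normalizes by quantiles and summarises probes, and whose version and settings are not given in the sources used here. They ranged from 2.47 to 14.0 and were used as deposited. Of 45100 probe sets, 64 were controls, 34944 had a single gene symbol, 932 several and 9160 none in the platform annotation. All 51 guidance genes matched the RefSeq table (GRCm38.p6) by Entrez identifier with the same symbol.

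Groups were taken from the sample titles. The brightest probe set of each gene on average, 18194 in all, entered a single fit in limma 3.58.1 under R 4.3.3 (lmFit with 1 coefficient per group, eBayes, all 9 arrays, no covariates, 2-sided, 6 residual and 5.48 prior degrees of freedom). P-values were adjusted by Benjamini-Hochberg over all genes, with a threshold of 0.05, and intervals are 95% intervals of the moderated statistic. The fit was tested on simulated data. The number of arrays limits the precision, and arrays have no counting depth.

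The members and lists were chosen with earlier results of these data known. Values by array are given for genes called in a comparison, or with an unadjusted p below 0.05 and groups that did not overlap, 8 in all. Group means are given for the 3 genes of each family with the highest mean signal. From the pathway lists (77 of 78 genes measured) and the marker lists (46 of 49) the called genes are named, with both neuropilins. Further genes were chosen after their values were seen: Efnb3, Efna1, Ephb3, Epha4, Sema4d, Sema3c and single markers. Motifs were searched in Python 3.11.15, and figures drawn with matplotlib 3.10.9. Alternatives were a signal filter, the mean of probe sets, no probe sets of the _s_at or _x_at type, every probe set and median centring. Others were quantile normalization, moderation with trend and robust options, array quality weights, a fit of each pair of groups alone and replicate numbers as blocks. Further ones were an adjusted p below 0.01, each array left out, and each other probe set.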

Additional observations from a re-analysis of the deposited data

How the results depend on the processing

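Between IR and NIR, 0 guidance genes passed under every alternative run. Efnb2 passed against PA in both derived lines under every alternative except its dimmest probe set. In IR against PA the count of 1 became 2 with array weights, and ranged from 1 to 2 without single arrays. In NIR against PA the count of 2 fell to 1, with Efnb1 lost, for the mean of probe sets, every probe set, median centring, the compared groups alone and an adjusted p below 0.01, and ranged from 1 to 2 without single arrays. The F test count of 2 fell to 1 in the same settings (not run for the compared groups alone), with the same range. The replicate block gave 1 guidance gene in NIR against PA and 1 by the F test (Efnb1 adjusted p = 0.0611). Same-numbered arrays deviated from their group means with correlations of -0.201 to 0.0974 over 9 pairs. The labels state no pairing, and without a comparison to arrays of different numbers these correlations cannot exclude it.

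Of the 77 pathway list genes, markers not counted, 2 passed in IR against NIR, 0 with the compared groups alone and 0 below 0.01, and 1 to 4 without single arrays. In IR against PA 1 passed, 0 with the mean of probe sets or below 0.01, 2 with every probe set or array weights, and 0 to 1 without single arrays. In NIR against PA 0 passed, 1 with the signal filter, trend and robust settings, array weights or the replicate block, and 0 to 3 without single arrays.

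Over the 24 differences of the 8 genes given by array, 460 of 507 alternative values kept direction and side of the threshold, 15 lost a call, 2 gained one and 30 changed sign. None of the differences that changed sign had passed except Efnb1 in NIR against PA. For IR against NIR the mean of probe sets gave -0.028 for Efnb2, 0.028 for Efnb1 and -0.10 for Plxna2, array weights gave 0.017 for Epha1, and other probe sets gave -0.086 and -0.13 for Efnb2, 0.099 and 0.055 for Efnb1, -0.086 and -0.021 for Plxnc1, 0.080 for Epha1, and -0.30, -0.065 and -0.12 for Plxna2. For IR against PA other probe sets gave -5.41e-05 for Efnb1, 0.067 and 0.070 for Plxnc1, 0.069 for Epha1, 0.040 for Plxna2 and -0.083 for Efna5. For NIR against PA they gave -0.055 for Efnb1, 0.15 and 0.091 for Plxnc1, 0.077 for Epha1, 0.16 for Plxna2 and -0.087 for Efna5. Without single arrays, in IR against NIR Epha1 ranged from -0.042 to 0.022 and Efnb1 from -0.15 to 0.024, Sema3e ranged from -0.0017 to 0.13 in IR against PA, and Sema4c from -0.20 to 0.021 in NIR against PA. The cause was not tested. Over all genes, 300 calls in IR against NIR became 525 with the signal filter, 11 in a fit of IR and NIR alone, 41 below 0.01 and 77 to 271 without single arrays. The 192 in IR against PA became 467 with array weights, 100 below 0.01 and 99 to 214 without single arrays. The 236 in NIR against PA became 382, 108 and 121 to 370 in those settings. Signal over background limits the dim genes.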

Other observations

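Sema3c, a secreted semaphorin that binds neuropilins and plexin-D1, had the widest range over the 9 arrays of the 38 guidance genes that were not dim, 1.80 on the log2 scale, against a median range of 0.43. It read 5.17, 5.43 and 4.61 in IR, 6.05, 4.41 and 4.25 in NIR, and 5.11, 5.72 and 5.11 in PA. NIR1 was the highest of all arrays and NIR3 the lowest, so that the spread within NIR exceeded any difference between groups. Its other probe set read 5.35 on NIR1, against 4.64 on NIR2 and 4.67 on NIR3. The 95% interval of NIR minus PA ran from -1.27 to 0.45.

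NIR2 held the highest value of the 9 arrays for 13 of the 38 genes that were not dim (34.2%), against 20.5% of all 12098 such genes. Among these were Sema5a at 10.50, Sema4d at 8.74, Plxnb2 at 10.01 and Plxna1 at 8.07. PA1 and PA2 were highest for 0 of the 38, against 5.74% and 10.7% of all such genes. NIR1 was lowest for 10 of the 38, against 13.9% of all such genes. These counts are descriptions of single arrays, and genes are not independent replicates.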
